A study of Mus musculus with 2 samples.

Results

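Malat1, Neat1, Meg3, Miat, Kcnq1ot1, Mir124a-1hg, Platr17, A330023F24Rik, A930006I01Rik and 4632427E13Rik are 10 of the 32285 genes counted in single-cell libraries of the mouse retina. They were chosen by name as long non-coding RNAs of interest in this tissue, with earlier results of the same libraries known, and their spliced, ambiguous and unspliced molecules were read separately in rods, cones, retinal pigment epithelium (RPE) and Müller glia. The annotation lists 9830 of the 32285 genes as long non-coding, and 9 of the 10 RNAs are among them. Platr17 goes against its label: the GENCODE annotation of the GRCm38 genome gives it as a protein-coding gene of 3 exons, so its values are given here as those of a short coding gene.

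Long non-coding RNAs are transcribed and often spliced and polyadenylated like messenger RNAs but have no long open reading frame. Many stay in the nucleus. Malat1 is a very abundant RNA of nuclear speckles, where splicing factors gather, and Neat1 is the RNA scaffold of paraspeckles, nuclear bodies that grow in stressed cells. Kcnq1ot1 and Meg3 are imprinted, that is, transcribed from the allele of 1 parent: Kcnq1ot1 from the paternal allele, where it silences neighbouring genes, and Meg3 from the maternal allele in neurons and other cells. Miat is a neural and retinal RNA, also called Gomafu. Mir124a-1hg is the host transcript of a miR-124 gene, the microRNA typical of neurons and photoreceptors, and A330023F24Rik carries the genes of miR-29b and miR-29c.

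The study compared retinae of dark-adapted control mice with retinae collected 6 h after a damaging light exposure, an acute model of photoreceptor degeneration. Both groups are labelled WT. By the study's methods the mice carried floxed Tgfbr2 alleles and were taken as functionally wild type. They were on a Balb-C/CD1 background with the light-sensitive L450 form of RPE65, at an age of 6 to 9 weeks. Both groups spent 18 h in complete darkness, and the light damage group was then placed under white light of 5000 lux for 30 min and returned to dim light for its recovery. Each group is 1 droplet library made from the pooled retinae of 3 to 5 mice after removal of dead cells, so no difference below has a replicate behind it and none was tested. The intervals cover counting error only, at 95%.

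A level is given in CPM, the molecules (UMIs) of a gene classed as spliced or ambiguous, called exonic below, per 1000000 such molecules of all genes in a class of droplets. It is a share of the RNA in those droplets, and since the libraries count transcript ends, it is not divided by length. A difference is given as a log2 ratio of 2 levels with its exact interval. "At least 2-fold" describes genes with 50 or more UMIs over both groups compared, and the share of all such genes that pass is given beside each count of members.

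The genes differ in how much of them can be counted as unspliced at all. Malat1 (chr19:5795690-5802672, minus strand), Neat1 (chr19:5824708-5845478, minus strand), Kcnq1ot1 (chr7:143203458-143296549, minus strand) and 4632427E13Rik (chr7:92734166-92741468, minus strand) have 0 bases that are intron in every annotated transcript. A single-exon transcript spans each of the first 3, and in 4632427E13Rik, whose transcripts have 1 or 2 exons, exons of other transcripts cover its 820 intronic bases. Such genes make up 8.29% of long non-coding and 6.45% of protein-coding genes. None of their molecules can be called unspliced, and the libraries held 0 unspliced against 279928 exonic Malat1 UMIs in control. The share of intron-only sequence was 27.6% for Mir124a-1hg (chr14:64587331-64593961, plus strand), 41.1% for Meg3 (chr12:109541001-109571726, plus strand), 42.5% for Miat (chr5:112213228-112229395, minus strand), 47.6% for Platr17 (chr17:33905135-33906675, plus strand), 84.8% for A330023F24Rik (chr1:194976375-195037904, plus strand) and 93.5% for A930006I01Rik (chr2:103338601-103372764, minus strand). Kcnq1ot1 lies wholly inside Kcnq1, a potassium channel gene read from the opposite strand, and the authors kept only reads in the sense direction of a transcript.

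The libraries were primed with oligo-dT, which also anneals to runs of A inside a transcript. Such runs are shown for these RNAs because none of their molecules can be called unspliced. Each window is printed in the direction of the transcript, from the minus strand of GRCm38, with the run in capitals. Malat1 holds its run of 12 A 298 bases before its annotated end, 4632427E13Rik a run of 12 in its single-exon transcripts, shown here, and one of 13 in a 2-exon transcript, and Kcnq1ot1 holds 10 runs of at least 10 A, the longest of 41. The longest run in Neat1 is 7.
Malat1, chr19:5795963-5796024: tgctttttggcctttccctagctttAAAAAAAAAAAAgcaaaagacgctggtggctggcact
4632427E13Rik, chr7:92739587-92739648: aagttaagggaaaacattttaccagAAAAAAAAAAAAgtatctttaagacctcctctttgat
Kcnq1ot1, chr7:143226920-143227010: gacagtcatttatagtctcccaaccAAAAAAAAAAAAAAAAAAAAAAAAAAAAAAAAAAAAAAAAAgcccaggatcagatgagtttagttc

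The microRNAs that RefSeq (GRCm38.p6) places inside the host genes are shown as mature RNAs with the seed, bases 2 to 8, in capitals. The RefSeq entries used placed none inside Mir124a-1hg, so no miR-124 sequence is shown. In A330023F24Rik the 3p arms of miR-29b and miR-29c share the seed AGCACCA, and they start at positions 195037091 and 195037600 of chromosome 1, near the end of the host at 195037904. The libraries do not count mature microRNAs, so the levels below are those of the host transcripts.
mmu-miR-29b-3p in A330023F24Rik: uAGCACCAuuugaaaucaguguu
mmu-miR-29c-3p in A330023F24Rik: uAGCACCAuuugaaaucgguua
mmu-miR-29b-2-5p in A330023F24Rik: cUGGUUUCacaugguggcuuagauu
mmu-miR-29c-5p in A330023F24Rik: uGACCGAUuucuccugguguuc
mmu-miR-770-5p in Meg3: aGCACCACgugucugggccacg
mmu-miR-770-3p in Meg3: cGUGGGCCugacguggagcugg
mmu-miR-1906 in Meg3: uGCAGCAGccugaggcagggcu

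After filtering, 3669 control and 5594 light damage droplets were kept, with a median of 2848 and 4480.5 UMIs, and 7 barcodes occurred in both. Droplets were named from marker genes: 154 and 280 as RPE, 160 and 90 as cones and 42 and 38 as Müller glia in control and light damage. Rods were split on the share of their UMIs that were unspliced, the members left out of that share: 2360 and 1887 rods under 20% are called cytoplasm-rich, and 691 and 3069 rods of at least 30% nucleus-rich, with 116 and 56 between. Just below the lower limit, at 15 to 20%, were 56 and 16 rods, and just above the upper limit, at 30 to 35%, were 57 and 82. Müller glia lie closest to their limit: 35 control and 125 light damage droplets had a marker share of 0.225 to 0.375% against a limit of 0.3%, and 66 and 112 were at or above it, not all of which met the other conditions. The 10 genes leading each class by fold over the other droplets held 7 and 5 cone markers in cones and 1 and 3 RPE markers in RPE. They held 2 Müller markers in control and 0 in light damage, where Tnfaip6, Prss56 and Nrg1 led, although all 9 Müller markers were detected there. For all rods together they held 0 rod markers in both libraries, although all 12 rod markers were detected. Rod markers took a median of 11.4% of the exonic UMIs of control cones, against 13.4% in cytoplasm-rich rods and 11.5% in free RNA (barcodes under 50 UMIs), and 3.39% in light damage cones. Their part in the cone results was not tested. The pools also differ in sex: rods held 3680 Xist UMIs in control and 1 in light damage, and 151 and 3926 UMIs of 4 Y-linked genes, so sex and light cannot be told apart.

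The nucleus-rich rods carried Malat1 and Kcnq1ot1 at levels of a different order from those of cytoplasm-rich rods. Malat1 stood at 876 CPM (855 to 897) in cytoplasm-rich and 59600 CPM in nucleus-rich control rods, and at 851 (829 to 874) and 52800 CPM after light damage. The median rod of the first kind held 1 Malat1 UMI in control and 2 in light damage, that of the second kind 84 and 168. Kcnq1ot1 stood at 9.27 CPM (7.25 to 11.7) and 867 CPM (820 to 916) in control, and at 5.09 (3.51 to 7.15) and 450 (438 to 463) in light damage. Both contrasts were seen in both libraries, with intervals that do not meet. The split is on splicing state, so it describes which RNAs go with unspliced RNA and not a measured place in the cell.

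As log2 ratios of nucleus-rich over cytoplasm-rich levels, Kcnq1ot1 reached 6.55 (6.21 to 6.91) in control and 6.47 (5.97 to 7.01) in light damage. A330023F24Rik reached 6.39 and 6.11, Malat1 6.09 and 5.96, Mir124a-1hg 5.90 and 5.51 and 4632427E13Rik 5.35 in both libraries. Each lay above 98.9% or more of the genes with enough UMIs, whose median was 0.65 in control and 0.76 in light damage. Neat1 rose from 1.54 to 25.2 CPM between the rod kinds in control, on 12 and 37 UMIs, and from 1.70 to 19.7 CPM in light damage, a log2 ratio of 3.54 (2.67 to 4.56). Platr17 and A930006I01Rik went the other way, with ratios of -1.70 and -1.21 in control and -2.13 and -1.42 in light damage. With unspliced UMIs added to the levels, A930006I01Rik had -0.31 in control and -0.85 in light damage, under 2-fold in both. At that setting Platr17 had -2.87 and -3.10, Malat1 4.90 and 4.96 and Kcnq1ot1 5.36 and 5.47. By exonic level 5 of 7 members with enough UMIs in control were at least 2-fold higher and 2 at least 2-fold lower. Among all genes 38.2% were higher and 7.3% lower. Of 8 in light damage 6 were higher and 2 lower, where the shares were 40.8% and 5.35%. Among long non-coding genes 61.8% and 71.3% were at least 2-fold higher and 6.97% and 2.66% lower, with median log2 ratios of 1.57 and 2.14. Meg3 and Miat had too few UMIs in rods for a ratio.

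**Figure D1:**
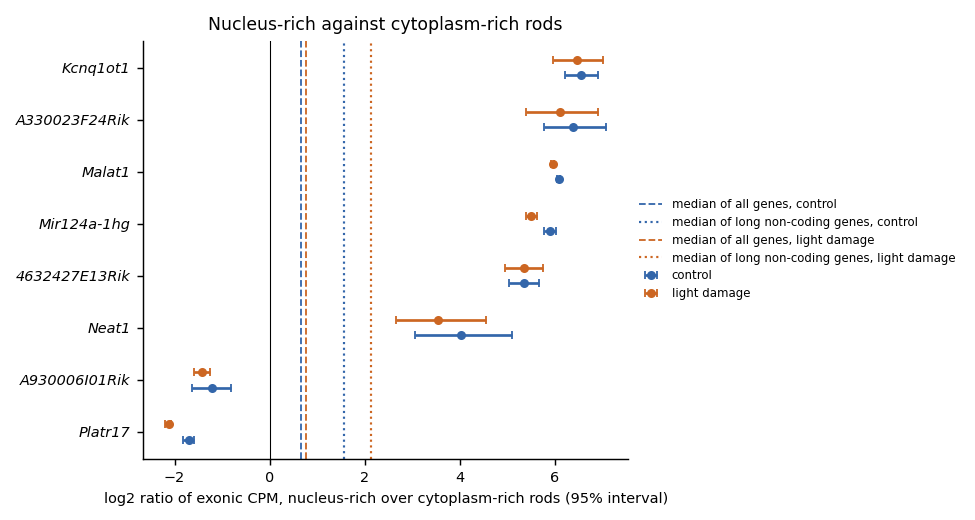
Log2 ratio of exonic CPM in nucleus-rich over cytoplasm-rich rods (x axis) for each RNA with UMIs in both (y axis), as points with 95% intervals for the control and light damage libraries. Dashed lines mark the median of all genes and dotted lines that of long non-coding genes. Kcnq1ot1, A330023F24Rik, Malat1, Mir124a-1hg and 4632427E13Rik lie above 5 in both libraries, and Platr17 and A930006I01Rik lie below 0.

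Binned by unspliced share, rods showed a graded change with no single step at the limits of the split. Control Malat1 was 369 CPM (354 to 383) at 3 to 6% unspliced, 6290 CPM at 10 to 20%, 13800 CPM at 20 to 30%, 29100 CPM at 30 to 40% and 78200 CPM at 60 to 70%. In light damage the same bins held 593, 4710, 14400, 29100 and 82600 CPM. From 3 to 6% to 60 to 70% the log2 ratio was 7.73 and 7.12 for Malat1 in control and light damage, 9.00 and 8.60 for Kcnq1ot1, on 14 and 10 UMIs in the low bin, and 7.12 and 6.76 for Mir124a-1hg. Platr17 fell from 1530 to 258 CPM in control and from 1140 to 173 CPM in light damage across the same bins.

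**Figure D2:**
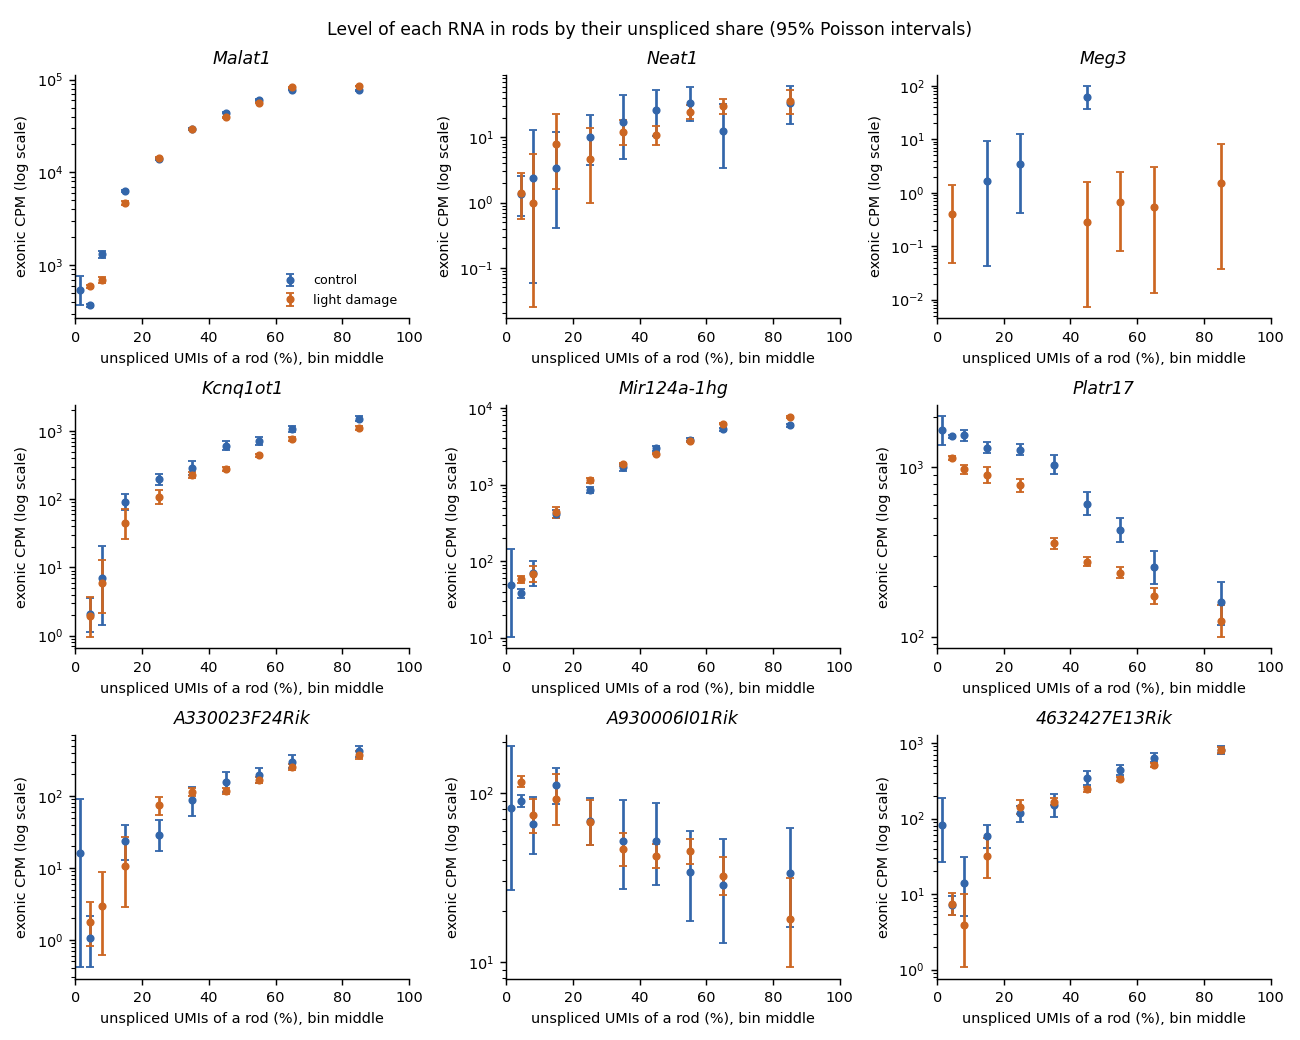
Exonic CPM on a log axis (y) of each RNA in rods grouped by the share of their UMIs that is unspliced (x, bin middle, %), with 95% Poisson intervals, for control and light damage. Bins of under 20 droplets or with 0 UMIs are not drawn. Malat1 climbs from 369 CPM at 3 to 6% to 78200 CPM at 60 to 70% in control, while Platr17 falls from 1530 to 258 CPM.

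The splicing state of the molecules themselves separated the members into kinds. A330023F24Rik, the miR-29 host, was counted mostly as unspliced in every rod class: 64.5% of its UMIs in cytoplasm-rich and 72.3% in nucleus-rich control rods, and 61.0% and 69.3% in light damage. The share of all genes was 5.5% and 58.5% in control and 5.77% and 52.7% in light damage, so its few molecules in cytoplasm-rich rods, 62 in control, stood far above that background. Mir124a-1hg was mostly spliced in both rod kinds, with 3.27% and 6.04% unspliced in control and 5.75% and 7.33% in light damage, although its exonic level followed Malat1. A930006I01Rik, a 3-exon RNA of unknown role, was 3.71% unspliced in cytoplasm-rich and 77.4% in nucleus-rich control rods, and 3.30% and 67.3% in light damage. Its exonic level fell between the kinds, from 90.2 to 38.9 CPM in control and from 109 to 40.6 CPM in light damage. Its unspliced UMIs rose meanwhile from 3.28 to 55.2 CPM of all UMIs in control and from 3.49 to 39.6 CPM in light damage. The rods were split on unspliced share, so such a rise is built into the split for genes as a whole.

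Platr17 was spliced throughout: 0.0847% of its UMIs were unspliced in cytoplasm-rich and 1.73% in nucleus-rich control rods, and 0.042% and 2.11% in light damage, against a gene of which 47.6% is intron. Long non-coding genes as a whole had a median unspliced share of 15.8% and 90.3% in the control rod kinds and 17.6% and 87.8% in light damage. Of the members with enough UMIs, 1 of 7 and 2 of 7 stood above the share of all UMIs in the control rod kinds, the 4 genes without intron-only sequence included, where 33.9% and 46.1% of all genes did. In light damage it was 0 of 5 and 2 of 8, where 26.6% and 46.0% of all genes did. In cones this held for 1 of 7 in each library (41.9% and 43.3% of all genes), in RPE for 0 of 2 and 1 of 4 (11.1% and 23.8%), and in Müller glia for 0 of 4 and 1 of 7 (65.8% and 56.3%). Malat1 UMIs were 29.9% and 29.4% ambiguous in the control rod kinds and 30.2% and 28.0% in light damage, a share that did not follow the rod kind. For Meg3, whose many transcripts overlap, 98.7% of the UMIs in control cones were ambiguous.

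**Figure D3:**
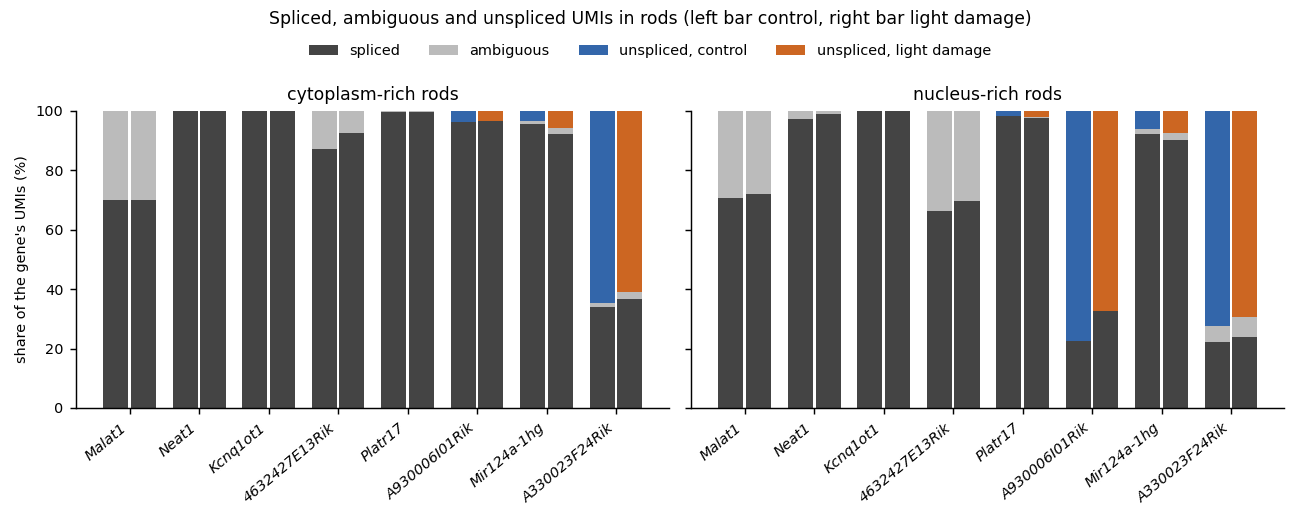
Share of each RNA's UMIs (y axis, %) that is spliced, ambiguous or unspliced in cytoplasm-rich and nucleus-rich rods (panels), left bar control and right bar light damage, by gene (x axis). A930006I01Rik changes from 3.71% to 77.4% unspliced between the control rod kinds, which are themselves split on unspliced share. Malat1, Neat1, Kcnq1ot1 and 4632427E13Rik are at 0% in every bar drawn.

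Over all rods of a library, the RNAs that stood higher in nucleus-rich rods were also higher after light damage. Malat1 went from 10400 CPM to 32500 CPM, a log2 ratio of 1.64 (1.63 to 1.65), Mir124a-1hg from 714 to 2290 CPM, 1.68 (1.64 to 1.72), A330023F24Rik from 39.5 to 106 CPM, 1.42, 4632427E13Rik from 90.2 to 212 CPM, 1.23, and Neat1 from 5.60 to 12.6 CPM, 1.17. Platr17 went from 1350 to 580 CPM, a log2 ratio of -1.22. Of 8 members with enough UMIs 5 were at least 2-fold higher and 1 lower, where 24.9% of all genes were higher and 2.14% lower, and the median over all genes was 0.54.

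The mix of rod droplets moved with these values. Cytoplasm-rich rods gave 79.1% of the exonic rod UMIs in control and 36.4% in light damage, and nucleus-rich rods were 21.8% and 61.2% of the rod droplets. With the light damage rod classes weighted as in control, the log2 ratio was -0.15 for Malat1, which then stood at 9410 CPM, and -0.06 for Mir124a-1hg, -0.31 for A330023F24Rik, -0.46 for 4632427E13Rik, -0.29 for Neat1 and -0.49 for Platr17. For Kcnq1ot1 it went from 0.89 to -0.94 and for A930006I01Rik from -0.29 to 0.24. Droplets that lost cytoplasm, nuclei and whole cells cannot be told apart from these counts.

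Within cytoplasm-rich and within nucleus-rich rods no member with enough UMIs was changed by 2-fold or more. In cytoplasm-rich rods this was 0 of 6 members with enough UMIs in either direction, where 3.46% of all genes were at least 2-fold higher and 0.764% lower. In nucleus-rich rods it was 0 of 8, where the shares were 7.89% and 3.21%. Meg3, under the minimum, had a log2 ratio of -4.63 (-6.43 to -3.13) in nucleus-rich rods on 17 control and 5 light damage UMIs, most of the former in 1 droplet. In the rods between the limits A330023F24Rik had 1.35 (0.52 to 2.24) on 17 and 47 UMIs. Malat1 had log2 ratios of -0.04 (-0.09 to 0.01) and -0.17 (-0.19 to -0.16), and within the bins from 20% unspliced upward its ratios lay between -0.17 and 0.16. Below that they went apart, at 0.69 (0.61 to 0.76) in the 3 to 6% bin, -0.91 (-1.07 to -0.75) at 6 to 10% and -0.42 (-0.50 to -0.34) at 10 to 20%, and with rods split at 10% and 40% the cytoplasm-rich ratio was 0.52. Neat1 had ratios of 0.14 (-1.19 to 1.44), on 12 control and 11 light damage UMIs, and -0.35 (-0.86 to 0.19), so neither direction could be told at this depth. Mir124a-1hg had 0.24 and -0.14 in the rod kinds. By bin its ratio was 0.60 (0.36 to 0.85) at 3 to 6% and -0.24 (-0.34 to -0.13) at 40 to 50%. It was 0.25 (0.17 to 0.32) at 60 to 70% and 0.36 (0.28 to 0.44) at 70 to 100%, so its sign also differed within nucleus-rich rods.

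Kcnq1ot1 was lower after light damage in nucleus-rich rods and Platr17 in both rod kinds. Kcnq1ot1 had a log2 ratio of -0.95 (-1.04 to -0.86) in nucleus-rich rods, and from -0.38 to -1.14 in the 7 bins from 10% unspliced upward, where the interval at 30 to 40% reached 0.02. In cytoplasm-rich rods it had -0.86 (-1.5 to -0.25), which became 0.15 with rods split at 10% and 40%. The bins that hold most of these rods had -0.09 (-1.42 to 1.19) at 3 to 6% and -0.25 (-2.48 to 2.37) at 6 to 10%, so no direction could be told there. Platr17 fell from 1520 to 1100 CPM and from 466 to 251 CPM, log2 ratios of -0.46 (-0.50 to -0.42) and -0.89 (-1.01 to -0.77). Its ratio was negative in all 10 bins, from -0.35 to -1.54, the lowest bin resting on 4 light damage droplets. A330023F24Rik and 4632427E13Rik were lower in nucleus-rich rods by less, with -0.48 (-0.65 to -0.31) and -0.54 (-0.66 to -0.42). Within the bins from 30% unspliced upward A330023F24Rik lay between -0.43 and 0.40, every interval reaching both signs. 4632427E13Rik lay between -0.50 and 0.14 there, with intervals wholly negative only from 40 to 70%. Counted as UMIs per droplet in place of CPM, the nucleus-rich ratios were -0.23 for Kcnq1ot1 and -0.18 for Platr17. They were 0.23 for A330023F24Rik and 0.17 for 4632427E13Rik. The median unspliced share of nucleus-rich rods was 61.9% in control and 57.4% in light damage, and its part in these ratios was not tested. Over the members the median log2 ratio was -0.25 in cytoplasm-rich and -0.42 in nucleus-rich rods, against 0.16 and 0.04 over all genes and -0.20 and -0.27 over long non-coding genes.

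Across the 5 classes Malat1 had one order in both libraries. Müller glia had the highest level, 120000 CPM (118000 to 122000) in control and 109000 CPM (108000 to 110000) in light damage. Nucleus-rich rods followed at 59600 and 52800 CPM, then cones at 17600 and 30500 CPM, cytoplasm-rich rods at 876 and 851 CPM and RPE at 543 and 662 CPM. No neighbours in that order had intervals that meet. The order also follows the unspliced share in part: the median was 56.1% and 50.3% in Müller glia, 21.9% and 34.1% in cones and 3.83% and 3.68% in RPE. What free RNA alone would have given was estimated from markers foreign to a class, rod markers in RPE and RPE markers elsewhere, as if all of their UMIs there were free RNA, so it is an upper value. It would have given RPE 801 CPM of Malat1 in control and 327 CPM in light damage, against 543 and 662 CPM found, so the RPE level in control is not above that background.

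At like unspliced share the Malat1 ratios of Müller glia and RPE were smaller in size than over all rods, and those of cones were not. Müller glia of at least 30% unspliced UMIs stood at 125000 and 114000 CPM against nucleus-rich rods, log2 ratios of 1.07 (1.04 to 1.09) in control and 1.11 (1.10 to 1.13) in light damage. Over all rods the Müller ratios were 3.52 and 1.74. Cones of the same share, 20 and 51 droplets, stood below nucleus-rich rods, at -0.99 and -0.49, against 0.76 and -0.09 over all rods. RPE under 20% unspliced stood below cytoplasm-rich rods, at -0.86 and -0.79, against -4.26 and -5.62 over all rods.

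**Figure D4:**
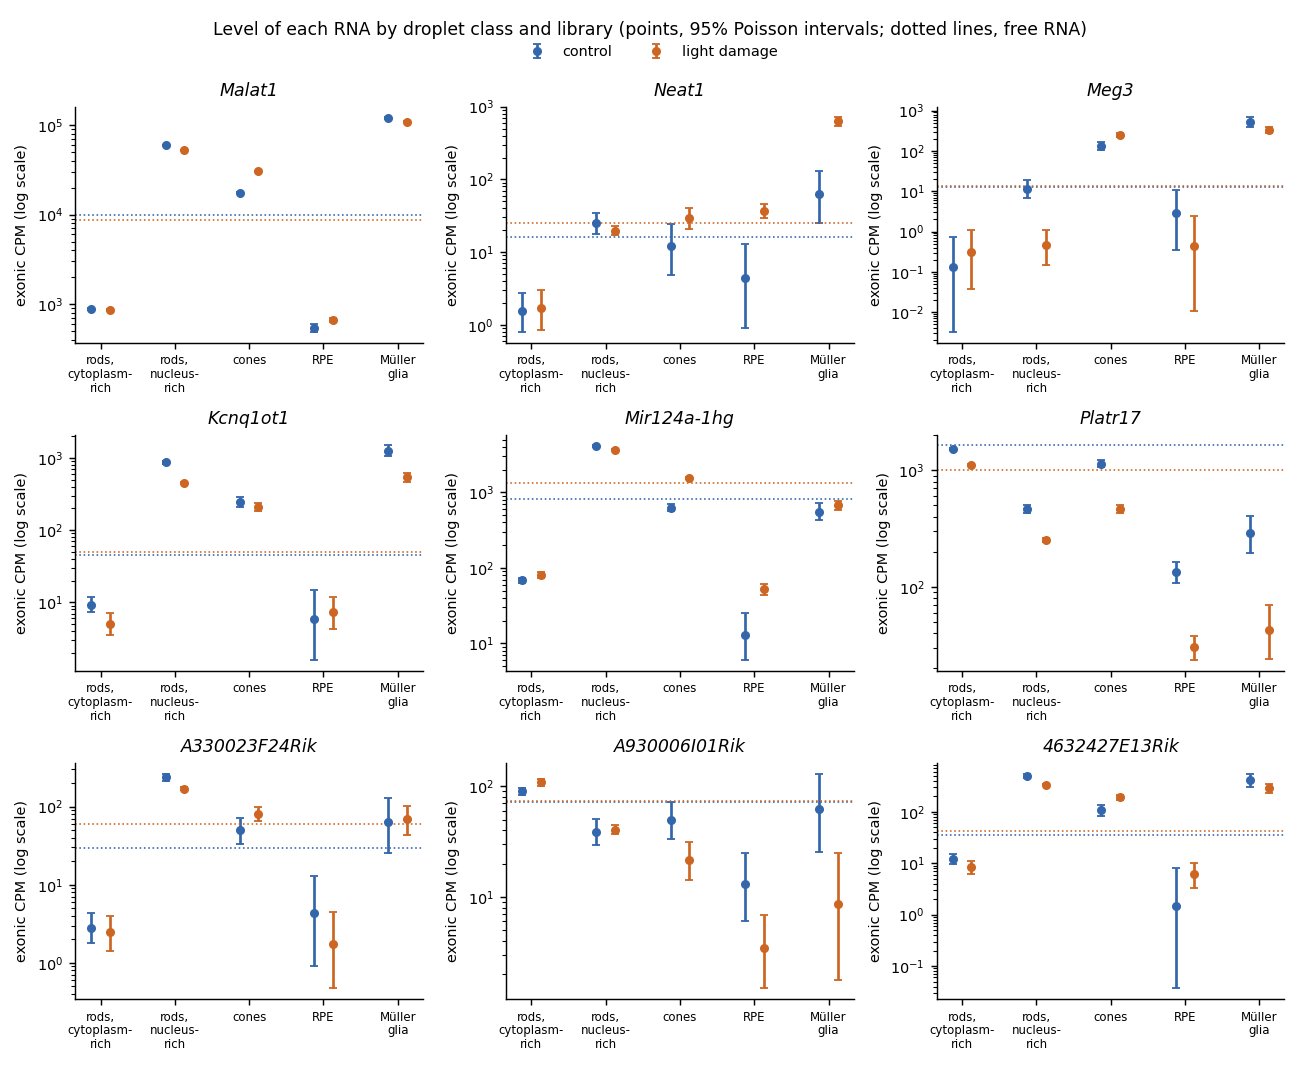
Exonic CPM on a log axis (y) of each RNA in cytoplasm-rich rods, nucleus-rich rods, cones, RPE and Müller glia (x), as points with 95% Poisson intervals for control and light damage, with the free RNA of each library as dotted lines. Malat1 is highest in Müller glia, at 120000 and 109000 CPM, and Meg3 is at or under 11.6 CPM in rods and RPE but at 130 CPM or more in cones and Müller glia.

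Meg3, a neuronal RNA in most tissues, was nearly missing from rods. Cytoplasm-rich rods held 1 UMI in control and 2 in light damage, and nucleus-rich rods 17 and 5, of which 1 control droplet held 64.7%. Cones stood at 130 CPM (103 to 163) and 253 CPM (226 to 282), and Müller glia at 530 CPM (403 to 684) and 331 CPM (273 to 397). RPE held 2 UMIs and 1 UMI. Over all rods this gave cones a log2 ratio of 6.00 (5.27 to 6.79) in control and 9.33 (8.27 to 10.65) in light damage, and Müller glia 8.02 and 9.72. Detection was uneven within a class: 19.4% and 33.3% of cones and 35.7% and 26.3% of Müller glia held a Meg3 UMI, and 1 light damage Müller droplet held 35.3% of that class's Meg3. Bipolar and amacrine neurons, 20 and 17 droplets, stood highest at 1980 and 2280 CPM.

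Mir124a-1hg was highest in nucleus-rich rods, at 4080 CPM (3980 to 4190) and 3690 CPM (3660 to 3730). Cones stood at 629 and 1550 CPM, Müller glia at 557 and 673 CPM, whose intervals meet those of cones in control, and RPE at 13.1 and 51.9 CPM. Free RNA would have given RPE 64.4 and 50.7 CPM, so its RPE level does not exceed that background in control and lies at it in light damage. At like unspliced share cones stood below nucleus-rich rods, with log2 ratios of -2.11 (-2.32 to -1.91) and -0.97 (-1.04 to -0.91), and Müller glia at -2.79 (-3.17 to -2.43) and -2.39 (-2.59 to -2.21). In Müller glia 1 control droplet held 30.6% of the UMIs.

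Among the 5 classes Kcnq1ot1 was highest in Müller glia in both libraries, at 1260 CPM (1060 to 1480) and 542 CPM (467 to 624), above nucleus-rich rods at 867 and 450 CPM. Cones stood at 245 and 210 CPM and RPE at 5.84 and 7.36 CPM, on 4 and 17 UMIs. The order Müller glia, nucleus-rich rods, cones was that of Malat1. The 17 bipolar and amacrine droplets of light damage stood above it, at 1130 CPM (972 to 1300). 4632427E13Rik, an RNA of unknown role, was highest in nucleus-rich rods at 494 CPM (459 to 531) and 339 CPM (328 to 351), with Müller glia at 413 CPM (303 to 551) and 288 CPM (235 to 350), and those intervals meet in both libraries. A330023F24Rik was highest of the 5 classes in nucleus-rich rods, at 238 and 170 CPM, over Müller glia at 62.9 and 68.4 CPM and cones at 49.7 and 80.5 CPM, whose intervals meet. Bipolar and amacrine droplets held 240 CPM (124 to 419) of it in control and 308 CPM (229 to 404) in light damage.

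Platr17 was highest in cytoplasm-rich rods, at 1520 and 1100 CPM, and was found in 91.8% and 89.6% of them. Cones stood at 1140 and 463 CPM, nucleus-rich rods at 466 and 251 CPM and Müller glia at 287 and 42.8 CPM. RPE held 133 and 30.3 CPM where free RNA alone would have given 130 and 38.1 CPM, and Müller glia in light damage held 42.8 CPM where it would have given 37.9 CPM. A930006I01Rik was also highest in cytoplasm-rich rods, at 90.2 CPM (83.7 to 97.1) and 109 CPM (101 to 117). It was at 49.7 and 21.5 CPM in cones, and its RPE and Müller levels rest on 3 to 9 UMIs.

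Neat1 was low in every rod class and, in light damage, highest in Müller glia. In control its level was 62.9 CPM (25.3 to 130) in Müller glia on 7 UMIs, 25.2 CPM in nucleus-rich rods, 12.0 CPM in cones and 4.38 CPM in RPE on 3 UMIs, and these neighbours have intervals that meet. In light damage Müller glia stood at 627 CPM (547 to 716), RPE at 37.2 CPM (29.8 to 46.0), cones at 29.5 CPM (20.8 to 40.6) and nucleus-rich rods at 19.7 CPM (17.2 to 22.6), and only Müller glia among these had an interval that met no neighbour's. Miat was not detected as an exonic molecule. The whole control library held 0 exonic UMIs, which allows up to 0.148 CPM, and the whole light damage library 0, which allows up to 0.101 CPM. Unspliced Miat UMIs numbered 1 and 9, of which 5 were in nucleus-rich light damage rods.

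Counted over all rods, 2 of 9 members with enough UMIs were at least 2-fold higher and 0 lower in control cones, where 6.85% and 5.15% of all genes were. In light damage cones it was 2 and 1 of 9, where the shares were 6.07% and 6.48%. In RPE 0 of 8 were higher and 7 lower in control, where the shares were 16.7% and 37.2%, and 1 of 8 higher and 7 lower in light damage, where they were 17% and 47.3%. Among long non-coding genes 63.1% were lower in control RPE and 83% in light damage RPE. Müller glia had 5 of 9 higher and 1 lower in control, where the shares were 32.4% and 17.3%, and 3 and 3 of 9 in light damage, where they were 18.2% and 26.8%. At like unspliced share, cones over nucleus-rich rods had 2 of 8 higher and 4 lower in control, where 5.69% and 20.7% of all genes were, and 1 and 1 of 9 in light damage, where 5.72% and 11.5% were. Müller glia over nucleus-rich rods then had 2 of 8 higher and 3 lower in control, where 9.93% and 31.6% of all genes were, and 3 and 4 of 9 in light damage, where 13.4% and 32% were. RPE under 20% unspliced over cytoplasm-rich rods had 0 of 6 higher and 5 lower in control, where 18.6% and 33.4% of all genes were. In light damage it was 1 and 4 of 6, where 21.8% and 31.7% were.

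Light damage went with a higher Neat1 level outside rods. In Müller glia Neat1 went from 62.9 CPM on 7 UMIs to 627 CPM on 220 UMIs, a log2 ratio of 3.32 (2.25 to 4.65), and from 11.9% to 63.2% of the droplets. In RPE it went from 4.38 CPM on 3 UMIs to 37.2 CPM on 86 UMIs, 3.09 (1.49 to 5.39), and from 1.95% to 18.6% of the droplets, with no droplet above 5.81% of the light damage UMIs. These were the largest light ratios among the members with enough UMIs. At like unspliced share the ratios were 3.24 in Müller glia and 3.06 in RPE, and with a stricter limit of marker UMIs that in RPE was 1.90. The median Müller droplet held 2484 UMIs in control and 18060 in light damage, and the median RPE droplet 2674.5 and 6497, and the part of that depth in the shares of droplets was not tested. In cones Neat1 went from 12.0 to 29.5 CPM, but 1 light damage droplet held 62.2% of its 37 UMIs there.

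Müller glia otherwise showed 1 member that fell by 2-fold or more, so that 1 of 6 was higher and 1 lower where 26.1% and 12.1% of all genes were. Kcnq1ot1 went from 1260 to 542 CPM, at a ratio of -1.22 (-1.54 to -0.89), and -1.24 at like unspliced share. The median gene with enough UMIs in each library had -0.56 in this class, and relative to it Kcnq1ot1 stood at -0.65 and Neat1 at 3.88. Malat1 had -0.14 (-0.17 to -0.11), Meg3 -0.68 (-1.14 to -0.20), 4632427E13Rik -0.52 (-1.04 to 0.01) and Mir124a-1hg 0.27 (-0.14 to 0.70). Platr17 went from 287 to 42.8 CPM on 32 and 15 UMIs, a ratio of -2.75 (-3.74 to -1.82), under the minimum of UMIs and with 9 of the light damage UMIs in 1 droplet.

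In RPE 2 of 4 members with enough UMIs were at least 2-fold higher and 1 lower, where 10.8% and 4.57% of all genes were. Beside Neat1, Mir124a-1hg had a log2 ratio of 1.98 (1.01 to 3.15) on 9 and 120 UMIs, which fell under 2-fold without doublet removal (0.94) and with a minimum of 1000 UMIs per droplet (0.12). Platr17 had one of -2.13 (-2.60 to -1.67) on 91 and 70 UMIs. Both moved at levels near or below what free RNA alone would give, and free RNA itself went from 806 to 1350 CPM for Mir124a-1hg and from 1630 to 1010 CPM for Platr17. Its part in the RPE ratios was not tested. Malat1 had 0.28 (0.12 to 0.45), 0.03 (-0.15 to 0.21) at like unspliced share and -0.61 with a minimum of 1000 UMIs per droplet, so its direction in RPE depended on the droplets kept.

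In cones 1 of 8 members was at least 2-fold higher and 2 lower, where 12.8% and 2.5% of all genes were. Mir124a-1hg had a log2 ratio of 1.30 (1.14 to 1.47), Platr17 -1.30 (-1.47 to -1.14) and A930006I01Rik -1.21 (-2.02 to -0.40) on 29 and 27 UMIs. Malat1 went from 17600 to 30500 CPM, a ratio of 0.79 (0.76 to 0.82), Meg3 had 0.95 (0.59 to 1.34) and Kcnq1ot1 -0.23 (-0.53 to 0.08). The median unspliced share of cones rose meanwhile from 21.9% to 34.1% and their rod markers fell from 11.4% to 3.39%. In cones of at least 30% unspliced UMIs 0 of 7 were higher and 1 lower, where 13.4% and 2.57% of all genes were, with Malat1 at 0.32, Mir124a-1hg at 0.99 and Platr17 at -1.30. Platr17 was the member lower after light damage in all 5 classes and in free RNA, on too few UMIs in Müller glia. Its RPE level in both libraries and its Müller level in light damage were near what free RNA alone would give. Median rod markers also fell, from 0.539% to 0.116% of exonic UMIs in RPE and from 2.41% to 0.536% in Müller glia. The part of carried-over rod RNA in these ratios was not tested.

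**Figure D5:**
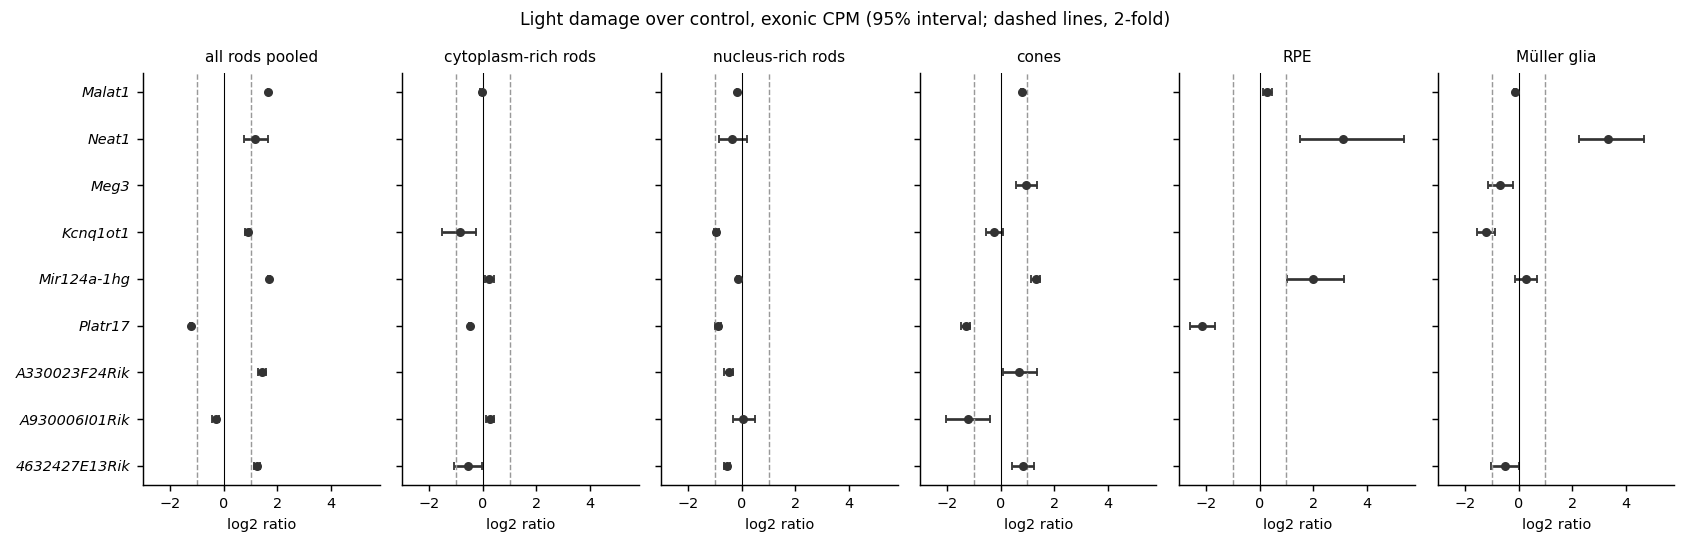
Log2 ratio of exonic CPM, light damage over control (x axis), for each RNA (y axis) in all rods pooled and in the 5 classes (6 panels), as points with 95% intervals, where enough UMIs were counted. Dashed lines mark 2-fold. Neat1 stands at 3.09 in RPE and 3.32 in Müller glia, Platr17 is below 0 in each panel that draws it (in Müller glia it had too few UMIs), and Malat1 lies between -0.17 and 0.79 in the 5 classes and at 1.64 over all rods.

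Lists of related genes put these values beside their families. The 5 genes of the X inactivation center, among them Xist, the RNA that coats the inactive X chromosome, followed Malat1 in rods: 5 of 5 were at least 2-fold higher in nucleus-rich control rods, with Xist at 2220 against 23.0 CPM, and 3 of 3 in light damage, where 38.2% and 40.8% of all genes were. After light damage 4 of 5 were lower in nucleus-rich rods, median -1.35, where 3.21% of all genes were, a difference that cannot be told apart from the sex of the pools. Of the host genes of small nucleolar RNAs, 2 of 10 were higher and 5 lower in nucleus-rich control rods, median -1.13, where 38.2% and 7.3% of all genes were, with Gas5 at 187 against 521 CPM. In light damage 4 of 11 were higher and 0 lower, median 0.56, where 40.8% and 5.35% of all genes were. After light damage 2 of 11 were higher in nucleus-rich rods, Snhg12 at 2.11 (1.86 to 2.37) and Snhg1 at 1.85 (1.47 to 2.25), where 7.89% of all genes were. In Müller glia 5 of 6 were higher and 1 lower, where 26.1% and 12.1% of all genes and 32.5% and 15% of long non-coding genes were. In cytoplasm-rich rods 0 of 10 passed 2-fold, in cones 2 of 11 were higher and in RPE 1 of 7, where 12.8% and 10.8% of all genes were. Müller glia held 111331 exonic UMIs in control and 350747 in light damage, so a gene could reach the minimum through light damage alone. Their median log2 ratio was 0.21 over all genes at the minimum but -0.56 over genes with enough UMIs in each library.

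Of 5 paraspeckle proteins, which bind Neat1, 0 and 1 were at least 2-fold higher after light damage in cytoplasm-rich and nucleus-rich rods, where 3.46% and 7.89% of all genes were, and 0 were lower. The 1 was Rbm14 at 1.11 (0.53 to 1.74), while Sfpq had 0.26 and 0.13 and Nono 0.15 and -0.18 in the rod kinds. In RPE 1 of 4 was higher, Pspc1 at 1.73 (0.53 to 3.22) on 6 and 67 UMIs, where 10.8% of all genes were. In Müller glia it was 1 of 3, Sfpq at 1.33 (0.63 to 2.10), where 26.1% were, and in cones 0 of 4. In nucleus-rich over cytoplasm-rich rods 3 of 5 were higher in control and 4 of 5 in light damage, where 38.2% and 40.8% of all genes were. Of the protein-coding genes beside Kcnq1ot1, Cdkn1c, a cell cycle inhibitor that this RNA is known to silence, was the 1 of 4 with enough UMIs in rods. Its log2 ratio after light damage was 0.29 (0.05 to 0.53) in cytoplasm-rich and 1.60 (1.01 to 2.25) in nucleus-rich rods, the latter on 24 and 529 UMIs. In nucleus-rich rods 7.89% of all genes were at least 2-fold higher. The 1 gene of this list with enough UMIs had 0.70 in cones and 0.19 in RPE, and 0 of 4 had enough in Müller glia. A link between Cdkn1c and Kcnq1ot1 levels was not tested.

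Among microRNA host genes, Mir124-2hg, the host of another miR-124 gene, stood at 755 CPM in cytoplasm-rich and 2500 CPM in nucleus-rich control rods, and had light ratios of -0.34 (-0.40 to -0.28) and -0.82 (-0.87 to -0.77). Of such hosts with enough UMIs 2 of 2 and 3 of 3 were at least 2-fold higher in nucleus-rich rods, in control and light damage, where 61.8% and 71.3% of long non-coding and 38.2% and 40.8% of all genes were, which is also the background of the counts for this split below. The light counts stand beside the shares of all genes in each class given above. After light 0 of 2 passed 2-fold in cytoplasm-rich rods, 1 of 3 was higher in nucleus-rich rods, 0 of 1 and 0 of 3 passed in cones and RPE, and 1 of 2 was lower in Müller glia. Of the imprinted genes, Meg3 and Kcnq1ot1 included, 2 of 3 were higher in nucleus-rich rods of each library, and with light 0 of 3 passed 2-fold in either rod kind and in cones, 0 of 1 in RPE and 1 of 2 in Müller glia, lower. Of retinal opposite-strand and neural RNAs 5 of 6 and 4 of 6 were higher in nucleus-rich rods, with Tug1 at 165 against 32.0 CPM in control. With light 0 of 5 and 0 of 6 passed 2-fold in the rod kinds, 1 of 5 was higher in cones, 2 of 5 were lower in RPE and 1 of 4 was lower in Müller glia, Six3os1 at -2.43 (-2.97 to -1.91).

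The genes whose levels went most like a member's were sought over the 10 combinations of class and library, among 7477 genes with at least 500 UMIs, by Pearson's r of log2(CPM + 1). For Malat1 these were 6720427I07Rik, Malt1 and Kcnq1ot1, each at 0.99, and for Neat1 Rab5a at 0.97 and Kdm6b and Dst at 0.96. For Meg3 they were Hopx at 0.96, Nav1 at 0.93 and Epha5 at 0.89. The 10 points share 2 libraries, differ in depth and in unspliced share, and give no test.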

How the data were processed

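Retinal cells of 1 control and 1 light damage pool were measured with 10x Genomics droplet libraries. Per the study's methods the authors mapped reads with Salmon (1.10.1) and alevin (0.8.1) to spliced transcripts and introns of mm10 after Cell Ranger (7.0.1) demultiplexing, and deposited raw spliced, unspliced and ambiguous UMI counts per gene and barcode. Gene names and coordinates are from GENCODE vM21 (GRCm38).

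Droplets at or above the inflection of the barcode rank curve (1464 and 1614 UMIs) with under 10% mitochondrial UMIs were kept, and the highest Scrublet scores, 0.8% per 1000 droplets, were removed as doublets (114 and 275). The automatic Scrublet threshold had marked 1 and 0. A class needed at least 3 distinct markers and a marker share of exonic UMIs of 2% (RPE) or 0.3% (cones, Müller glia, microglia, bipolar and amacrine cells). Rods needed 1.5% rod markers and low shares of the others. These limits and the rod limits of 20% and 30% were set after seeing the data. The members and gene lists (X inactivation center, small nucleolar RNA hosts, microRNA hosts, imprinted, retinal opposite-strand and neural RNAs, paraspeckle proteins, genes beside Kcnq1ot1) were chosen with earlier results of these data known, and 1 symbol of 9 microRNA hosts and 1 of 13 retinal RNAs matched no gene. All members and all genes of each list are covered, and the search for like genes covered Malat1, Neat1 and Meg3.

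UMIs were summed per class. Levels have exact Poisson intervals, shares exact binomial and ratios exact conditional binomial intervals (SciPy 1.17.1). A count of 0 was given a floor of 3 UMIs in ratios. With 1 library a group no test was run, and the UMIs of a gene summed over a class set the width of its intervals. The whole libraries held 30605284 and 54413601 UMIs. The computation was tested on simulated data. Alternatives were other droplet, mitochondrial, doublet, marker and rod limits, other centring, UMIs per droplet and like unspliced shares.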

Additional observations from a re-analysis of the deposited data

Results flagged for a closer look

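Bipolar and amacrine cells were not part of the comparisons, and Malat1 and Mir124a-1hg stood higher there after light damage than in control. Malat1 stood at 40100 CPM (39200 to 41100) in 17 light damage droplets against 35100 CPM (33400 to 36700) in 20 control droplets. Mir124a-1hg stood at 784 CPM (655 to 931) on 130 UMIs against 380 CPM (229 to 594) on 19 UMIs. Platr17 stood lower, at 446 against 660 CPM, and so did 4632427E13Rik, at 295 against 400 CPM, with intervals that meet. Kcnq1ot1, Meg3 and A330023F24Rik stood higher there in light damage, and the intervals of Kcnq1ot1 and A330023F24Rik meet. The median droplet of this class held 2654.5 UMIs in control and 19428 in light damage, with rod markers at 4.67% and 0.142% of exonic UMIs, whose part in the difference was not tested.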

How the results depend on the processing

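No paired analysis was possible because each group is 1 library. Of the counts of members past 2-fold or above the unspliced share of all genes, 151 of those under other limits and centrings stayed within 1.5 times the reported count and 7 moved, and 16 and 6 under counts per droplet and like unspliced share, which were added after seeing the data. Centred on the median gene, 1 member passed 2-fold with light in cytoplasm-rich rods, 1 in Müller glia and 1 over all rods in control cones. A minimum of 1000 UMIs per droplet gave 1 in nucleus-rich rods, and a mitochondrial limit of 5% gave 1 in control cones over all rods. Counted per droplet it was 6 with light in cones, 5 in Müller glia and 8 for light damage cones over all rods. At like unspliced share it was 1 with light in cones, 6 for control cones and 5 for light damage RPE over rods. Members above the unspliced share of all genes were 1 in cytoplasm-rich light damage rods without doublet removal and 0 in light damage Müller glia with stricter marker limits. Of values past 2-fold, the sign turned per droplet for Platr17 (0.63) and A930006I01Rik (0.73) with light in cones, Kcnq1ot1 (0.58) with light in Müller glia and A930006I01Rik in light damage cones over rods (0.35). At like unspliced share it turned for Neat1 in control cones over rods (-0.43) and 4632427E13Rik in control Müller glia over rods (-0.17). Of values under 2-fold, it turned for 19 per droplet, among them Malat1 with light in nucleus-rich rods (0.54) and Meg3 in Müller glia (1.12), and for 10 at like unspliced share, among them Malat1 (-0.99), Kcnq1ot1 (-1.36) and Platr17 (1.04) in control cones over rods. Counts per droplet follow depth, since light damage droplets hold more UMIs. The log2 ratio of Malat1 with light in RPE ranged from -0.61 at a minimum of 1000 UMIs to 1.18 per droplet, and that of Neat1 in Müller glia from 3.17 to 5.12.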

Other observations

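Microglia, 12 control and 39 light damage droplets named from markers such as C1qa, held Neat1 at 61.1 CPM (7.40 to 221) on 2 UMIs and 249 CPM (201 to 306) on 91 UMIs. Meg3 had 0 UMIs in microglia of both libraries. Kcnq1ot1 stood at 981 CPM (725 to 1300) and 1130 CPM (972 to 1300) in bipolar and amacrine cells, in 40.0% and 94.1% of the droplets.

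Free RNA of under 50 UMIs per barcode held A330023F24Rik with 45.6% and 36.7% of its UMIs unspliced, below its share in either rod kind, and Meg3 at 12.7 and 13.3 CPM, above its level in cytoplasm-rich rods.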
